A study of Homo sapiens with 5 samples.

Results

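The 38 protein-coding HOX genes described here lie in 4 clusters, with 10 members in HOXA, 10 in HOXB, 9 in HOXC and 9 in HOXD, out of 49765 genes with a transcript in the deposited tables. They were chosen by name, and the level of each is the sum of the FPKM (fragments per kilobase of transcript, corrected for the size of the library) of its annotated transcripts. HOX genes encode homeodomain transcription factors that set position along the body axis of the embryo. Within a cluster the genes stand in the order in which they are expressed from anterior to posterior, and genes at the same place in different clusters form a paralogue group. Cultured fibroblasts keep a HOX pattern that reflects where in the body they come from, and lung mesenchyme is known for the anterior and middle groups of the A and B clusters.

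The cells were WI-38, a line of diploid fibroblasts from human lung with a limited number of divisions in culture, counted as the population doubling level (PDL). Total RNA was measured in 5 libraries: late-passage cells at PDL 55, PDL 15 cells given AUF1 siRNA, PDL 15 cells given HuR siRNA, PDL 15 cells given control siRNA, and early-passage cells at PDL 15 without siRNA. AUF1 and HuR are RNA-binding proteins that bind AU-rich sequences in mRNAs and are known to alter mRNA decay and translation. With a single library in each group there are no replicates and no p-values, and every comparison sets 2 libraries, not 2 conditions, against each other.

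Depth in reads is not given in the sources used here. Coverage per unit of FPKM, which scales with depth, was 1.14 to 1.29 in 4 libraries and 0.300 in the control siRNA library. In the control siRNA library 80.4% of FPKM times length lay in transcripts assembled from the reads, against 25.1% to 29.01% in the others. Fibroblast markers were at or above 1 FPKM for 6 or 7 of 8 genes in each library, with a summed level of 1069, 6278, 1267, 1402 and 3103 FPKM at PDL 55, with AUF1 siRNA, HuR siRNA and control siRNA, and at PDL 15. COL1A1 was listed at 0 in the HuR siRNA library and VIM, the vimentin gene of every fibroblast, at 0 in 4 libraries with no estimate in the control siRNA library. A value of exactly 0 in these tables can therefore be a failed estimate, and genes are described as listed at 0. Of 4 lung mesenchyme genes, TBX5 (22.8 to 37.6 FPKM) and FOXF1 (6.63 to 28.6 FPKM) were above 0 in each library, TBX2 was listed at 0 with AUF1 siRNA and TBX4 at 0 with control siRNA, and the lung epithelial gene NKX2-1 was listed at 0 in each. The summed epithelial, endothelial and blood markers were highest at 16.7, 2.02 and 4.23 FPKM. HNRNPD, the gene of AUF1, was at 20.3 FPKM with AUF1 siRNA and 61.2 with control siRNA, a log2 ratio of -1.73 relative to the median gene. ELAVL1, the gene of HuR, was at 9.72 FPKM with HuR siRNA and 11.8 with control siRNA, a ratio of -0.55.

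The HOX genes listed with a level came from the anterior and middle positions. Of the 38 genes, 8 had a mean of at least 1 FPKM over the libraries: HOXA2, HOXA3 and HOXA5, HOXB5, HOXB6, HOXB7 and HOXB8, and HOXC6. All 8 were among the 22 members of paralogue groups 1 to 8, and 0 of the 16 members of groups 9 to 13 reached that mean. No member of HOXD reached it. The highest value of any gene of groups 9 to 13 in any library was 0.276 FPKM, that of HOXA9 with control siRNA. The number of members at or above 1 FPKM was 5 at PDL 55, 4 with AUF1 siRNA, 6 with HuR siRNA, 7 with control siRNA and 4 at PDL 15. Without the control siRNA library 6 of the 8 kept a mean of at least 1, since HOXB6 and HOXB8 owed theirs to it. At the edge of that threshold, HOXB7 had a mean of 1.42 FPKM and HOXD3 of 0.201.

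**Figure D1:**
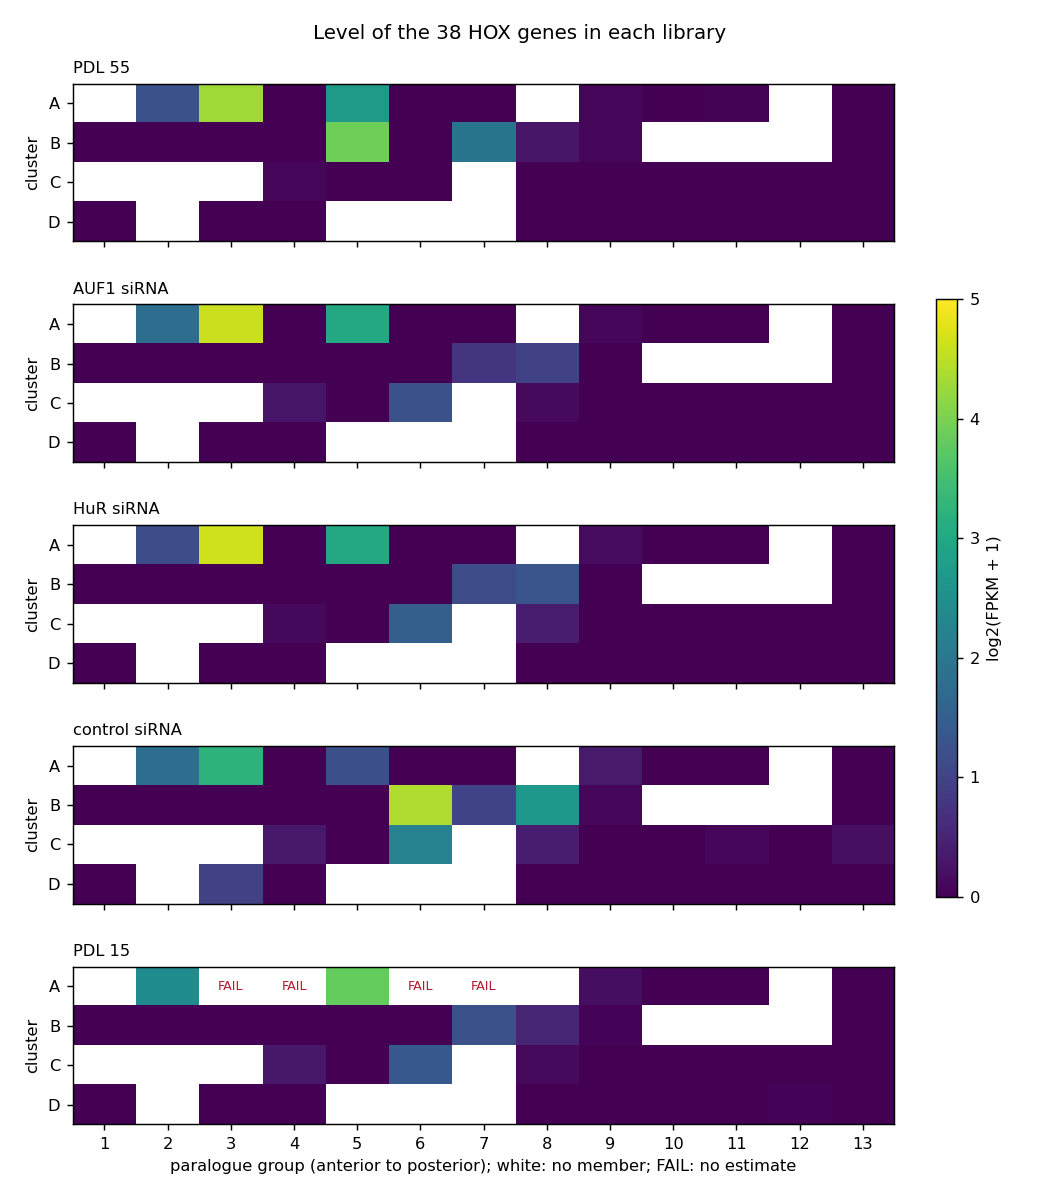
Each panel is 1 library, with the paralogue group from left to right, the cluster from top to bottom, and the colour giving log2(FPKM + 1). Levels stand in groups 2 to 8 of clusters A, B and C, while the right-hand side and nearly all of cluster D stay near 0, and 4 genes of cluster A have no estimate (FAIL) at PDL 15.

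The other 30 genes were at or near 0. Of these, 21 were listed at 0 wherever an estimate was given, 18 of them in all 5 libraries. The remaining 3, HOXA4, HOXA6 and HOXA7, had the status FAIL, meaning no estimate, at PDL 15, as did HOXA3. The 9 genes with a value above 0 but a mean under 1 were HOXA9, HOXA11, HOXB9, HOXC4, HOXC8, HOXC11, HOXC13, HOXD3 and HOXD12, and their highest single value was 0.994 FPKM, that of HOXD3 with control siRNA. HOXC4, an anterior member of its cluster, was above 0 in every library at 0.0573 to 0.272 FPKM, and HOXC8 reached 0.325 FPKM with HuR siRNA. HOXB2, HOXB3 and HOXB4, the anterior neighbours of HOXB5, were listed at 0 throughout, although a noncoding transcript across HOXB3 and HOXB4 was among the most abundant of the clusters.

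Among the HOXA genes, HOXA2 and HOXA5 were the only members of the 38 at or above 1 FPKM in all 5 libraries. HOXA2, which patterns the hindbrain and the second branchial arch, stood at 1.35 FPKM at PDL 55 (deposited 95% bounds 1.03 to 1.68), 2.52 with AUF1 siRNA (2.07 to 2.97), 1.26 with HuR siRNA (0.920 to 1.59), 2.49 in the control siRNA library (1.60 to 3.39) and 4.43 at PDL 15 (3.84 to 5.02). On the deposited scale the untransfected PDL 15 library was the highest, its bounds apart from all others. The PDL 55 and HuR siRNA libraries were the lowest and overlapped each other. Relative to the median gene, the log2 ratio of control siRNA to PDL 15 was -0.23, and its range of -0.80 to 0.27 spanned 0. HOXA2 lies at chr7:27139973-27142148 (hg19), and its value rested on a single transcript, ENST00000222718, of 1532 nt.

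HOXA5, a gene required for normal lung and airway development in the mouse, was at 5.41 FPKM at PDL 55 (3.80 to 7.02), 7.06 with AUF1 siRNA (5.11 to 9.01), 7.14 with HuR siRNA (5.18 to 9.10), 1.33 in the control siRNA library (0.683 to 1.97) and 13.2 at PDL 15 (10.6 to 15.8). The PDL 15 library was highest and the control siRNA library lowest, and both stood clear of the other 3, which overlapped. The gene (chr7:27180671-27183287, hg19) was listed as a coding transcript of 1657 nt and a short one of 329 nt. The coding transcript ENST00000222726 was at 2.34, 2.30, 3.64, 1.33 and 5.36 FPKM at PDL 55, with AUF1 siRNA, HuR siRNA and control siRNA, and at PDL 15. The short one, ENST00000520854, was at 3.06, 4.76, 3.50, 0 and 7.80 FPKM in the same libraries, so in the control siRNA library it was listed at 0. A fragment selected at 250 to 300 bases hardly fits into a transcript of 329 nt, and FPKM of such transcripts can be overstated.

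HOXA3, which shapes the pharyngeal arches and the thymus in the mouse, had the highest summed value of any member in 3 libraries. It was at 18.4 FPKM at PDL 55 (15.7 to 21.1), 23.4 with AUF1 siRNA (20.0 to 26.8), 23.8 with HuR siRNA (21.5 to 26.1) and 8.40 in the control siRNA library (5.19 to 11.6), with no estimate at PDL 15. The control siRNA library was below the other 3, and their bounds did not reach it. All of this signal lay on transcripts that run across neighbouring HOX genes and are short once spliced. ENST00000518451, 541 nt long with a span of 25.7 kb across HOXA4, HOXA5 and HOXA6, was at 10.6, 11.5, 23.8 and 8.40 FPKM at PDL 55 and with AUF1, HuR and control siRNA. ENST00000522788, 581 nt long with a span of 29.8 kb across HOXA4, was at 7.82 and 11.9 FPKM at PDL 55 and with AUF1 siRNA and listed at 0 with HuR and control siRNA. The compact HOXA3 transcripts were listed at 0 in those 4 libraries, so the summed value cannot be assigned to the HOXA3 coding region alone. A transcript without a gene in the annotation used here, ENST00000521779, which follows nearly the same span as ENST00000522788, was at 15.7 FPKM with control siRNA and listed at 0 with HuR siRNA, with AUF1 siRNA and at PDL 55.

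**Figure D2:**
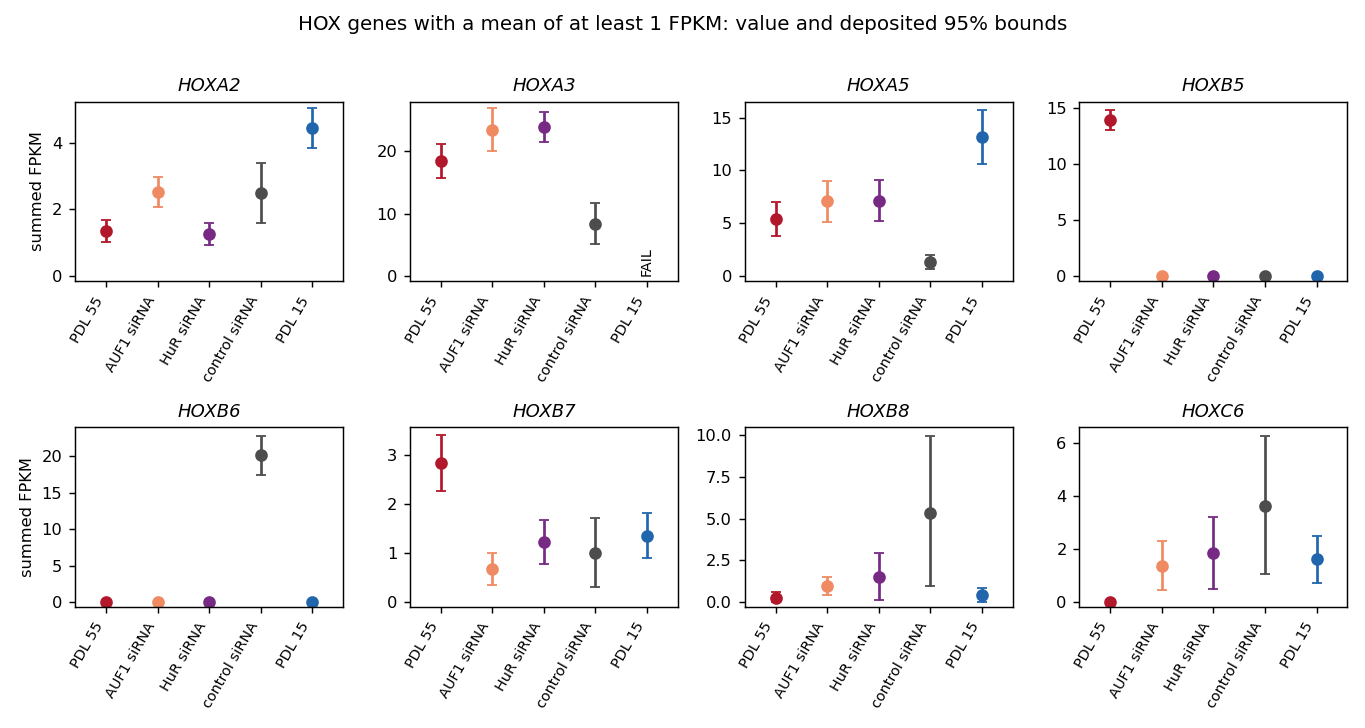
Summed FPKM of the 8 HOX genes with a mean of at least 1, by library, with the deposited 95% bounds of each estimate as bars. HOXB5 is above 0 only at PDL 55 and HOXB6 only with control siRNA, while HOXA2 and HOXA5 are highest at PDL 15 and HOXA3 has no estimate there.

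RefSeq (GRCh38.p14) gives promoter windows of 300 bases, 250 before and 50 after a start, for 20 of the 38 genes, of which 2 are among the 8 with a level. These windows set starts of HOXA2, with a level in every library, and of HOXA3, at the far start that lies within ENST00000518451, beside the start of HOXD13, the last gene of its cluster, which was listed at 0 in every library. Capitals mark a TATA box (letters TATAAA) and the joint motif of PBX and HOX proteins (letters TGATNNAT), on either strand. The HOXA2 window is chr7:27102634-27102933 on the minus strand, the HOXA3 window chr7:27152534-27152833 on the minus strand and the HOXD13 window chr2:176092471-176092770 on the plus strand.
HOXA2: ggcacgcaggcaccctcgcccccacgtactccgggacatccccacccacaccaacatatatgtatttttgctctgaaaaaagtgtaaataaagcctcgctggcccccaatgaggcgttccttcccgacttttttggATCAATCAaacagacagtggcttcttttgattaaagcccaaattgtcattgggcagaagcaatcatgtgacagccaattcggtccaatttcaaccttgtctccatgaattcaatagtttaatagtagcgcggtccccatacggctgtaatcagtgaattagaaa
HOXA3: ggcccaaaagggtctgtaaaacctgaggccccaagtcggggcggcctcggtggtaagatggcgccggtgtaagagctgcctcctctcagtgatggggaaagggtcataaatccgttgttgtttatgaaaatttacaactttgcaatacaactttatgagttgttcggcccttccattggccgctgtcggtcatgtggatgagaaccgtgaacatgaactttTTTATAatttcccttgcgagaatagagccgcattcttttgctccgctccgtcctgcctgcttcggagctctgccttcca
HOXD13: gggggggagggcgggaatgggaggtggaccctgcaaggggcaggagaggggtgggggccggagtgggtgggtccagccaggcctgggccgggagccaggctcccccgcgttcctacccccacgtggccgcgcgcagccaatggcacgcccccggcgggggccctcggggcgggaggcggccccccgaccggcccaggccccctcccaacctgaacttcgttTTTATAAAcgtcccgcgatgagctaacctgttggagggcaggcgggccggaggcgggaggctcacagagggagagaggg
The windows held 11, 15 and 24 CpG dinucleotides in HOXA2, HOXA3 and HOXD13. The median was 22 over the 27 windows of the 20 genes, against 14 over all 35116 promoter windows. Of the 27 windows, 5 held TATAAA (18.5%) and 3 held TGATNNAT (11.1%), against 11.5% and 7.40% of all windows. These are matches of letters and say nothing of which start was used.

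In cluster B, 2 members had a value in a single library. HOXB5, a paralogue of HOXA5 that is active in lung branching in the mouse, was at 13.97 FPKM at PDL 55 (13.1 to 14.9) and listed at 0 with AUF1, HuR and control siRNA and at PDL 15. HOXB6 was the mirror case, at 20.2 FPKM with control siRNA (17.5 to 22.8) and listed at 0 at PDL 55, with AUF1 siRNA, with HuR siRNA and at PDL 15. Because a 0 may be a failed estimate no fold is given. The 2 genes are neighbours, HOXB5 at chr17:46668619-46671323 and HOXB6 at chr17:46673114-46682354 (hg19).

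HOXB7 and HOXB8 had low levels in every library. HOXB7, a trunk gene, was at 2.84 FPKM at PDL 55 (2.27 to 3.41), 0.674 with AUF1 siRNA (0.341 to 1.01), 1.22 with HuR siRNA (0.767 to 1.68), 1.01 in the control siRNA library (0.310 to 1.71) and 1.35 at PDL 15 (0.890 to 1.82). The PDL 55 library was the highest and its bounds met none of the others. HOXB8, next in line and known as a growth regulator of blood cell precursors, was at 0.239 FPKM at PDL 55 (0 to 0.577), 0.952 with AUF1 siRNA (0.424 to 1.48), 1.48 with HuR siRNA (0.127 to 2.96), 5.35 in the control siRNA library (0.925 to 9.98) and 0.424 at PDL 15 (0.0121 to 0.853). The control siRNA value was the highest, but its bounds were wide and overlapped those with AUF1 and HuR siRNA. Of the 5.35 FPKM, 3.68 lay on ENST00000468443, a transcript of 207 nt.

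Most of the cluster B signal was not on coding genes. HOXB-AS3, a noncoding gene transcribed against the HOXB genes, was listed through ENST00000465846, a transcript of 419 nt with a span of 52.4 kb (chr17:46627247-46679694, hg19) that covers HOXB4, HOXB5 and most of HOXB3 and HOXB6. Its level was 293 FPKM at PDL 55 (284 to 303), 449.7 with AUF1 siRNA (438 to 462), 408 with HuR siRNA (bounds 396 to 419.7), 271 in the control siRNA library (253 to 289) and 459 at PDL 15 (447 to 471). It was lowest in the 2 libraries in which HOXB5 or HOXB6 had a value. Of the FPKM times length of all annotated transcripts in cluster B, this single transcript held 75.5% at PDL 55, 93.4% with AUF1 siRNA, 91.3% with HuR siRNA, 70.0% with control siRNA and 92.8% at PDL 15. The members held 20.1%, 0.649%, 1.22%, 23.9% and 1.07% in the same libraries. HOXB-AS2, a shorter antisense gene beside HOXB3, was at 11.8, 20.1, 23.1, 12.9 and 20.6 FPKM, lowest in the same 2 libraries as HOXB-AS3. Strand was not stated, so reads of HOXB-AS3 and of the coding genes it crosses cannot be told apart.

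**Figure D3:**
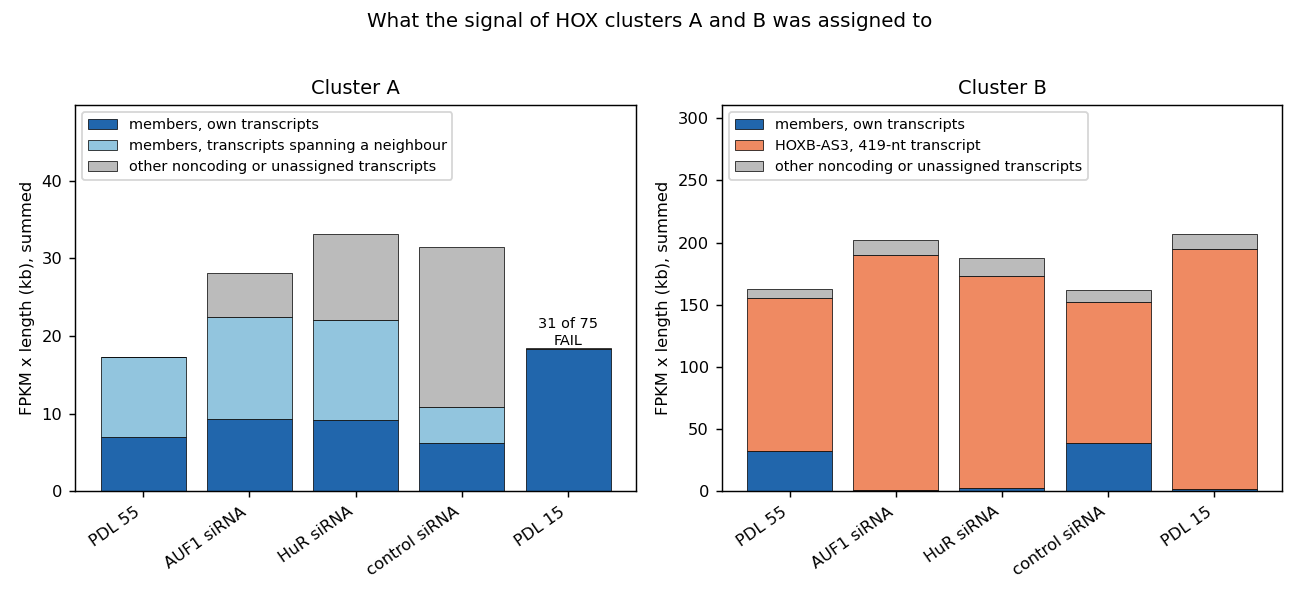
FPKM times transcript length in kb, summed over annotated transcripts, for clusters A (left) and B (right), by library and by what the signal was assigned to. In cluster B the 419-nt HOXB-AS3 transcript takes 70.0% to 93.4% of each bar and the total stays between 162 and 207, while the members' part is visible only at PDL 55 and with control siRNA. In cluster A, 31 of 75 transcripts have no estimate at PDL 15.

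Summed over the whole of cluster B, every comparison gave a ratio near that of the median gene. FPKM times length in kb summed to 163 at PDL 55, 202 with AUF1 siRNA, 187 with HuR siRNA, 162 with control siRNA and 207 at PDL 15. Relative to the median gene on the same scale, the log2 ratio was -0.05 at PDL 55 against PDL 15, 0.14 with AUF1 siRNA against control siRNA, -0.10 with HuR siRNA against control siRNA, 0.23 for AUF1 siRNA against HuR siRNA, and 0.08 for control siRNA against PDL 15. Cluster A summed to 17.3 at PDL 55, 28.1 with AUF1 siRNA, 33.2 with HuR siRNA and 31.4 with control siRNA, and its PDL 15 value of 18.4 leaves out 31 transcripts without an estimate. In cluster A the log2 ratio relative to the median gene was -0.33 with AUF1 siRNA and -0.23 with HuR siRNA, each against control siRNA.

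Clusters C and D were low. HOXC6, a gene of the thoracic region, was listed at 0 at PDL 55 and was at 1.36 FPKM with AUF1 siRNA (0.439 to 2.29), 1.84 with HuR siRNA (0.487 to 3.19), 3.62 in the control siRNA library (1.04 to 6.28) and 1.60 at PDL 15 (0.703 to 2.50). The 4 nonzero values overlapped. ENST00000509328, of 358 nt with a span of 34.7 kb across HOXC8 and HOXC9, held most of it, at 1.12, 0.962, 3.35 and 1.39 FPKM in those 4 libraries. HOTAIR, a noncoding RNA of cluster C known from posterior fibroblasts, was at 0.586 FPKM with control siRNA and listed at 0 in the other 4 libraries. Of the summed HOX FPKM, cluster A held 59.5%, 90.9%, 86.7%, 28.1% and 82.4% at PDL 55, with AUF1, HuR and control siRNA and at PDL 15, where 4 of its genes had no estimate. Cluster B held 40.4%, 4.47%, 7.26%, 59.8% and 8.41%. Cluster C held 0.135% to 9.92%, and cluster D 0% to 2.24%. These shares depend on which transcripts are counted: by FPKM times length over every annotated transcript, noncoding ones included, cluster A held 8.11% to 15.9% and cluster B 81.7% to 91.2%.

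For the comparisons, ratios are log2((FPKM + 1)/(FPKM + 1)) minus the ratio of the median gene, a scale that understates differences at low levels. A gene is counted when it is at least 2-fold apart on that scale, and the count is set beside the share of all genes that are. In bulk RNA, fewer cells with a transcript and less of it per cell cannot be told apart.

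At PDL 55 against PDL 15, the question is whether late-passage fibroblasts keep their HOX levels. Of 7 of the 8 genes with an estimate in both libraries, 2 were higher, HOXB5 and HOXB7, and 1 was lower, HOXC6, against 9.41% of all genes higher and 10.2% lower. The counts rest in part on zeros, since HOXB5 was listed at 0 at PDL 15 and HOXC6 at PDL 55. HOXB7 had a log2 ratio of 1.02, with bounds of 0.53 to 1.54. It stood just past the threshold and was short of it in 5 alternatives, at 0.89 with control siRNA as the reference, 0.72 with no filter, 0.71 on the deposited scale, 0.68 with a spanning transcript without a gene added and 0.31 with assembled transcripts. HOXA2 had a ratio of -0.89 and HOXA5 of -0.83, both short of the threshold, with deposited bounds that did not overlap between the libraries. With control siRNA as the reference HOXA5 was at 1.42 and HOXA2 at -0.61, so the sign of HOXA5 turned. The median ratio of the 7 genes was 0.11, against 0 for all genes by construction. Of the 4 genes above 0 in both libraries, 1 passed, and their median was -0.36.

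With AUF1 siRNA against control siRNA, the question is which transcripts depend on AUF1. HOXA3 (log2 ratio 1.19) and HOXA5 (1.61) were higher, against 10.6% of all genes. The 329-nt HOXA5 transcript was at 4.76 FPKM with AUF1 siRNA and listed at 0 with control siRNA. The coding HOXA5 transcript was at 2.30 FPKM (1.85 to 2.75) and 1.33 (0.683 to 1.97), with bounds that overlapped. So the HOXA5 count leaned on the short transcript. The HOXA3 value depended on which spanning transcripts were counted to it: it was -0.23 with ENST00000521779 added, an alternative chosen after seeing the data, and 0.17 with 1 transcript for each gene. HOXB6, HOXB8 (-1.88) and HOXC6 (-1.15) were lower, against 11.8% of all genes, with HOXB6 listed at 0 with AUF1 siRNA. HOXC6 was at -0.97 with no filter and on the deposited scale, short of the threshold. The summed bounds did not overlap for HOXA3 and HOXA5, and overlapped for HOXB8 and HOXC6. For HOXB6 the bounds with AUF1 siRNA were listed at 0 like the value, so they add nothing to it. The median of the 8 genes was -0.31. Without siRNA as the reference the picture differed: against PDL 15, HOXA5 had a ratio of -0.61, HOXB8 of 0.66 and HOXC6 of 0.067, so the signs of these 3 turned.

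With HuR siRNA against control siRNA, 2 members were higher and 3 lower. HOXA3 (1.10) and HOXA5 (1.51) were the higher ones, against 11.3% of all genes, and HOXB6, HOXB8 (-1.66) and HOXC6 (-1.004) lower, against 12.3%. The 329-nt HOXA5 transcript was at 3.50 FPKM with HuR siRNA and listed at 0 with control siRNA. The coding one was at 3.64 FPKM (3.06 to 4.23) and 1.33 (0.683 to 1.97). HOXB6 was listed at 0 with HuR siRNA. HOXC6 was at -0.70 with no filter and on the deposited scale, short of the threshold. With ENST00000521779 added HOXA3 turned to -0.32, and with a minimum mean of 5 FPKM it was at 0.94, short of the threshold. Both knockdown comparisons share the control siRNA library, which was the shallow one. Against PDL 15, HOXA5 had a ratio of -0.72, HOXB8 of 0.88 and HOXC6 of 0.20. HOXA2 was at -0.93 against control siRNA with bounds that did not overlap, just short of the threshold, and at -1.19 against PDL 15. The median of the 8 genes was -0.62.

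**Figure D4:**
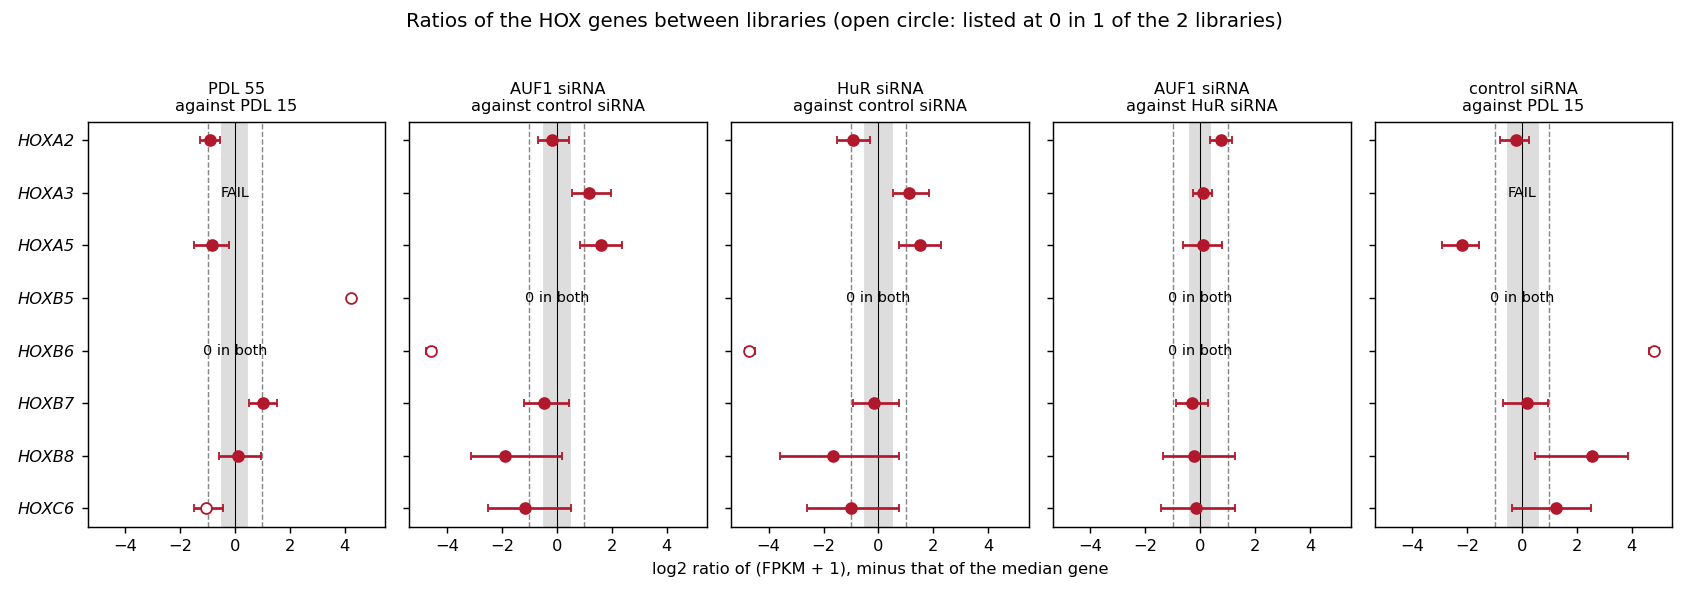
Log2 ratio of each of the 8 HOX genes in each comparison, relative to the median gene, with the range allowed by the deposited 95% bounds. Grey bands hold the middle 50% of all genes and dashed lines mark 2-fold. In AUF1 siRNA against HuR siRNA the genes lie within the dashed lines, and in the comparisons with control siRNA they spread to both sides.

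The AUF1 siRNA and HuR siRNA libraries were also set directly against each other. Of the 8 genes, 0 were higher and 0 lower, against 6.65% and 6.58% of all genes. HOXA2 came nearest, at 2.52 FPKM with AUF1 siRNA and 1.26 with HuR siRNA, a log2 ratio of 0.76 with bounds that did not overlap. The other 5 genes with a value in both ranged from -0.30 for HOXB7 to 0.10 for HOXA5, and HOXB5 and HOXB6 were listed at 0 in both. With no replicates, this does not show that the knockdowns act alike on these genes.

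Control siRNA against PDL 15 sets 2 libraries of early-passage cells with no named knockdown against each other. Of 7 genes, HOXB6, HOXB8 (2.57) and HOXC6 (1.24) were higher, against 14.2% of all genes, and HOXA5 (-2.19) was lower, against 12.0%. HOXC6 was at 0.83 with no filter and on the deposited scale, short of the threshold. HOXB6 was listed at 0 at PDL 15. HOXA2 (-0.23) and HOXB7 (0.18) lay within the threshold. With a spanning transcript without a gene counted to it, HOXB7 was at 1.17 and the higher members numbered 4. Of the 5 comparisons this one had the largest share of all genes past it, in each direction but for genes lower with HuR siRNA.

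AUF1 and HuR bind AU-rich sequences, of which ATTTA is the core. In the longest 3' UTR of each gene in GENCODE 29 (GRCh38), ATTTA was present in 33 of 38 members (86.8%) and in 67.7% of 19106 protein-coding genes. Among the 8 genes with a level it was present in 6, and HOXA2 and HOXB6 had none. HOXA3 held 7 copies, HOXC6 5, HOXB5 and HOXB7 2 each, and HOXA5 and HOXB8 1 each. These counts need not hold for the transcripts that carried the level. The HOXA3 3' UTR is 1731 nt long, while the HOXA3 signal lay on transcripts of 541 and 581 nt. The HOXC6 3' UTR is that of ENST00000243108, at 0 to 0.272 FPKM. Most of the HOXC6 signal lay on the 358-nt ENST00000509328. A pair of paralogues is shown as an example. The 26 bases around the first ATTTA (in capitals) of HOXA5 (chr7:27141576-27141601, minus strand) and of HOXB5 (chr17:48591817-48591842, minus strand) are identical at 19 positions. The ATTTA on which the 2 were aligned is among these 19.
HOXA5: gttttaacttATTTAtatgaagcaag
HOXB5: gttctaacttATTTAtaaaaagatga
The summed HOXA5 value was higher with both AUF1 and HuR siRNA than with control siRNA and lower than at PDL 15. HOXB5 was listed at 0 in all 4 of those libraries. Of the 2 genes without the motif, HOXA2 had values with AUF1 siRNA and control siRNA that overlapped and was lower with HuR siRNA (-0.93), with bounds apart, and HOXB6 was listed at 0 with AUF1 and HuR siRNA, against 20.2 FPKM with control siRNA. A match of letters is not a binding site.

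The HOX clusters also hold microRNA genes, whose products are known to act on HOX mRNAs. They are shown, with the seeds (bases 2 to 8) in capitals, to set the seed matches in the members' 3' UTRs beside the levels. MIR10A lies in cluster B at chr17:48579904-48579926 on the minus strand. The miR-196 genes lie at chr17:48632532-48632553 on the minus strand, chr12:53991762-53991783 on the plus strand and chr7:27169528-27169549 on the minus strand (RefSeq, GRCh38.p14). miR-196a and miR-196b share 1 seed and miR-10a has another.
miR-10a-5p: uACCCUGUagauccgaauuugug
miR-196a-5p: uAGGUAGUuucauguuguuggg
miR-196b-5p: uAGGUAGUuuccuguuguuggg
The complement of the miR-196 seed, ACTACCT, occurred in the 3' UTR of 8 of 38 members (21.1%) and of 7.16% of all protein-coding genes. Of the 8 genes with a level, HOXA5, HOXB6 and HOXB7 held it, at chr7:27141378-27141403, chr17:48595925-48595950 and chr17:48607605-48607630 (GRCh38, minus strand), in capitals below.
HOXA5: tttattcaaACTACCTatattccttg
HOXB6: ggagcacatACTACCTagaagtaaga
HOXB7: tgaaaaaatACTACCTataggaaagt
The complement of the miR-10 seed, ACAGGGT, occurred in 2 members (5.26%) and in 12.8% of all genes, and of the 8 genes with a level HOXA3 held it. That match lies in the 1731-nt 3' UTR, which the transcripts with the HOXA3 signal are too short to hold in full. The 3 genes with the miR-196 letters were highest in different libraries: HOXA5 was highest at PDL 15, HOXB6 was above 0 only with control siRNA, and HOXB7 was highest at PDL 55. Only exact matches were counted, so genes without the letters, HOXB8 among them, are not shown to lack a miR-196 site. Mature microRNAs are not measured by libraries of this fragment size. The MIR10A precursor was listed at 0.562 FPKM at PDL 55 (0 to 1.685), 0.584 with AUF1 siRNA (0 to 1.75) and 0 in the other 3 libraries. Both bounds reach 0. At 110 nt the precursor is shorter than the fragments selected, and it lies within the span of the HOXB-AS3 transcript.

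HOX proteins bind DNA together with TALE homeodomain partners of the PBX, MEIS and PKNOX families. The list of cofactors used here also holds TGIF1 and TGIF2, TALE homeodomain genes outside these families. Of 9 cofactor genes with a mean of at least 1 FPKM (of 10 examined), 5 were at least 2-fold lower at PDL 55 than at PDL 15 and 0 higher, with a list median of -1.22, against 10.2% of all genes lower. MEIS2 was at 5.56 FPKM at PDL 55, 15.9 with AUF1 siRNA, 25.0 with HuR siRNA, 18.7 with control siRNA and 41.7 at PDL 15. The PDL 55 library stood below the other 4, with a ratio of -2.39 against PDL 15. PBX3 was at 22.0, 50.6, 26.7, 43.3 and 95.9 FPKM in the same libraries, a ratio of -1.76. The other 3 past the threshold were MEIS1 (-1.22), MEIS3 (-1.49) and PKNOX2 (-1.43). PKNOX1, at 99.7 to 137 FPKM, showed no such difference (0.30). PBX2 (-0.28), TGIF1 (-0.29) and TGIF2 (-0.55) were short of the threshold.

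**Figure D5:**
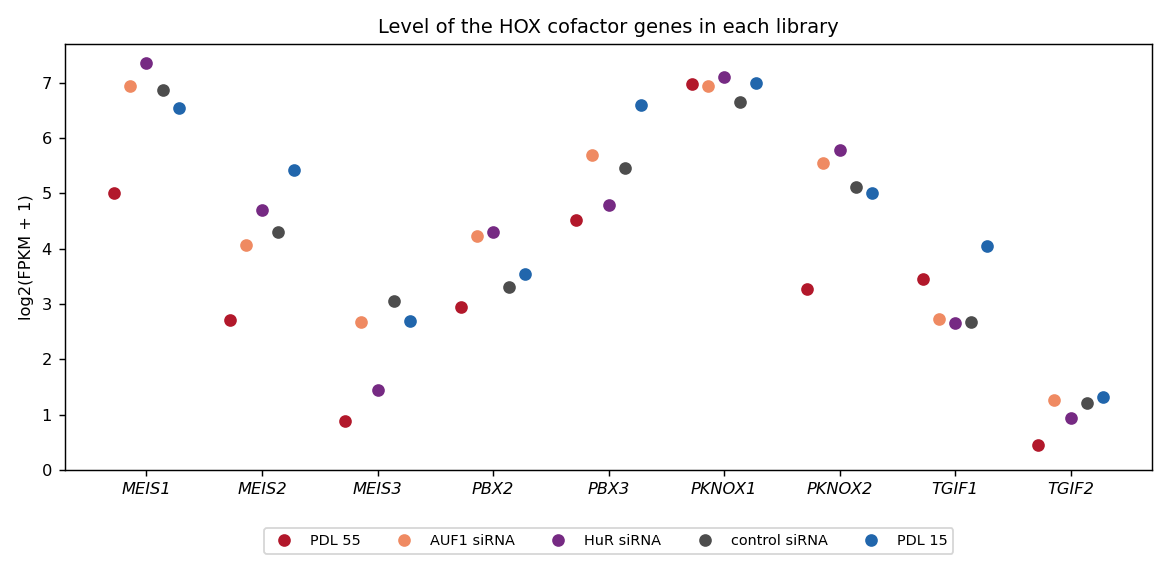
Log2(FPKM + 1) of the 9 HOX cofactor genes with a mean of at least 1 FPKM, by library. The PDL 55 library is the lowest of the 5 for 7 of the 9 genes, and PKNOX1 is at nearly the same level in each.

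With control siRNA as the reference, 4 of 9 cofactors were at least 2-fold lower at PDL 55, all among those 5, and PBX3 was just short. The median was -0.99, while 16.5% of all genes were lower. The PDL 55 library had the lowest value of the 5 for 7 of the 9 cofactors and for 32.3% of all genes. With AUF1 siRNA against control siRNA 0 of 9 cofactors passed in either direction (median -0.10), against 10.6% of all genes higher and 11.8% lower. With HuR siRNA against control siRNA 1 was lower (median 0.10), against 12.3% of all genes. It was MEIS3, at 1.73 FPKM with HuR siRNA and 7.26 with control siRNA. Between AUF1 and HuR siRNA, MEIS3 (1.34) and PBX3 (1.01) were higher with AUF1 siRNA, against 6.65% of all genes. The list is short and holds related genes, so it describes these libraries.

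The regulators that keep HOX clusters silent or active, the Polycomb and Trithorax groups with their partners, showed no such one-sided shift. Of 29 measured at PDL 55 against PDL 15, 3 were higher and 4 lower, with a median of -0.25, against 9.41% and 10.2% of all genes. EZH2, the Polycomb methyltransferase, was at 1.46 FPKM at PDL 55 and 10.8 at PDL 15, a ratio of -1.95. RBBP4, a subunit it shares with other complexes, was listed at 0 at PDL 55 and with HuR siRNA. With AUF1 siRNA 4 of 32 were higher and 3 lower than with control siRNA, against 10.6% and 11.8% of all genes. Among the higher ones was MEN1, a Trithorax-type cofactor, at 11.8 FPKM against 2.12. With HuR siRNA 3 were higher and 4 lower, against 11.3% and 12.3% of all genes. In control siRNA against PDL 15, 4 of 30 were higher and 4 lower, against 14.2% and 12.0% of all genes. Among the lower ones was EED, a Polycomb subunit, at 1.45 FPKM with control siRNA and 12.9 at PDL 15. These counts lie near the shares of all genes.

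Noncoding RNAs of the clusters other than those of HOXB were low, with 2 exceptions. HOTAIRM1, a myeloid-associated RNA at the anterior end of cluster A, was at 2.15 FPKM at PDL 55, 5.17 with AUF1 siRNA, 6.49 with HuR siRNA, 1.93 with control siRNA and 4.49 at PDL 15. Its ratio of HuR siRNA to control siRNA was 1.06, where 11.3% of all genes were higher. It was the only one of the cluster RNAs past the threshold in any comparison, and 0 of 3 or 4 measured passed in the other comparisons. HOXA-AS2 was listed at 0 at PDL 55, was at 11.1 FPKM with AUF1 siRNA, 21.8 with HuR siRNA and 12.3 with control siRNA, and had no estimate at PDL 15.

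Of 18 genes listed as flanking the clusters, 10 to 12 were at or above 1 FPKM in a library. PRAC2, which is among them, lies inside cluster B beside HOXB13 and was under 1 FPKM in every library. CALCOCO1, beside cluster C, was at 21.1 FPKM at PDL 55, 6.73 with AUF1 siRNA, 9.17 with HuR siRNA, 16.9 with control siRNA and 2.77 at PDL 15. CBX1, in the region of cluster B, was at 8.54, 13.3, 12.3, 36.6 and 14.2 FPKM, highest with control siRNA. Of 11 flanking genes measured at PDL 55 against PDL 15, 2 were higher and 1 lower, with a median of 0.00, against 9.41% and 10.2% of all genes. One of the higher genes, TAX1BP1, was at 40.1 FPKM at PDL 55 and listed at 0 at PDL 15. The even-skipped genes at the posterior cluster ends were at or near 0, EVX2 in every library and EVX1 in all but the control siRNA library, where it was at 0.432 FPKM.

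Other patterning genes of lung and limb mesenchyme were set beside the HOX genes. Of 10 measured at PDL 55 against PDL 15, 5 were lower and 1 higher, with a median of -0.71, against 10.2% and 9.41% of all genes. PRRX1, a mesenchymal homeobox gene, was at 19.6 FPKM at PDL 55 and 144 at PDL 15, a ratio of -2.50. TBX4, a lung and hindlimb T-box gene, was at 0.0439 FPKM at PDL 55 and 5.77 at PDL 15, a ratio of -2.38. Its low level was shared by other libraries, at 0.483 FPKM with AUF1 siRNA, 1.39 with HuR siRNA and listed at 0 with control siRNA. The 1 higher gene was PITX1, a hindlimb homeobox gene, at 29.3 FPKM at PDL 55 and 6.71 at PDL 15, a ratio of 2.29. With AUF1 and HuR siRNA, 1 of 10 patterning genes was lower in each case, against 11.8% and 12.3% of all genes. It was TBX2, which was listed at 0 with AUF1 siRNA.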

How the data were processed

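Total RNA of WI-38 cells was amplified by single-primer isothermal amplification, size-selected at 250 to 300 bases and sequenced, per the labels' protocols. TopHat2 2.0.6, Cufflinks 2.0.2, Cuffdiff and the build hg19 are named in the submitters' processing notes. For each library the authors deposited an FPKM for each annotated and assembled transcript, with its 95% bounds, a status and a coverage signal, per the file headers. The annotation release, the strand setting and the read numbers were not found in the labels or the tables.

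The 38 members were matched by symbol to 102 annotated transcripts, 98 through GENCODE release 29, 2 through identifiers in the tables and 2 by position (at least 50% of the span in 1 gene and under 10% in any other). FPKM and bounds were summed per gene, which tends to widen the bounds. A gene with a transcript of status FAIL had no value in that library. Start coordinates in the tables count from 0 and were raised by 1. A transcript was called spanning when it covered the body of another member. Ratios used a pseudocount of 1 FPKM, genes with a mean of at least 1 FPKM outside small RNA classes, and the median gene as 0. On the deposited log2 scale that median was -0.31 at PDL 55 against PDL 15, 0.18 for AUF1 siRNA and 0.30 for HuR siRNA over control siRNA, -0.11 for AUF1 siRNA over HuR siRNA, and -0.41 for control siRNA over PDL 15. Members with a mean of at least 1 FPKM are named with values in every library. Genes of other lists qualified to be named when at least 2-fold apart with bounds that do not overlap, up to 3 per list and comparison. Not all of these are named, and a few others were chosen after their values were seen. With AUF1 siRNA against control siRNA, for example, MEN1 (1.85) is named in its list and DPY30 (3.45) is not. The members and lists were chosen with earlier results of these data known, and some list genes are not reported here or counted. Sequences come from RefSeq tables and GENCODE 29 transcripts. The scripts (Python 3.11.15, pandas 2.3.3, numpy 2.4.6, matplotlib 3.10.9) were tested on simulated data. With 1 library per group no statistical test was made, and the bounds cover the estimate within 1 library only. The alternatives covered the pseudocount, filters, scaling, transcript choice and reference library.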

Additional observations from a re-analysis of the deposited data

Results flagged for a closer look

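Transcripts that Cufflinks assembled from the reads, and that no value above uses, were present in clusters A and B. In cluster A the control siRNA library held 1 such transcript of 156 nt at 176 FPKM, against a summed 9.35 FPKM over 4 transcripts at PDL 15. In cluster B they summed to 5.94 FPKM with AUF1 siRNA and 1.54 FPKM with HuR siRNA, against 0 with control siRNA. A transcript of 156 nt is shorter than the fragments selected, and its part in the other values was not tested.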

How the results depend on the processing

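No value has a replicate check, depth in reads is unknown, and the shallow control siRNA library is the reference of 2 comparisons. No paired analysis was possible because each group has 1 library. The cause of the changes below was not tested. Under the alternatives, 134 member counts and cluster shares stayed within 1.5 times the reported count or within the deposited bounds, and 47 did not. Of the other values 362 stayed, 92 moved and 10, all ratios at least 2-fold apart as reported, changed sign. Smaller ratios that changed sign were counted as stayed or moved, so 10 is not the number of all sign changes.

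With the reference library swapped, HOXA5, HOXB6, HOXB8 and HOXC6 were at -0.61, 0.21, 0.66 and 0.0667 with AUF1 siRNA against PDL 15. With HuR siRNA against PDL 15 they were at -0.72, 0.0799, 0.88 and 0.20, with HOXB6 listed at 0 in each of these libraries. That swap left 0 members higher and 0 lower with AUF1 siRNA, 0 higher and 1 lower with HuR siRNA, and 3 lower at PDL 55. Counting the 2 spanning transcripts without a gene to HOXA3 and HOXB7, chosen after seeing the data, turned HOXA3 to -0.23 with AUF1 siRNA and -0.32 with HuR siRNA, and left 1 member higher in each and 1 at PDL 55.

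At PDL 55 the count of higher members was 0 with a minimum mean of 5 FPKM and 1 with no filter, with deposited scaling or with assembled transcripts. The count of lower members at PDL 55 was 2 with a pseudocount of 0.1, 3 with no filter or deposited scaling, and 0 with the minimum of 5, with 1 transcript per gene or without spanning transcripts. With AUF1 siRNA, 1 member was higher with 1 transcript per gene or without spanning transcripts and 0 were lower with the minimum of 5. With HuR siRNA, 1 was higher and 0 lower with the minimum of 5, and 1 was higher without spanning transcripts. AUF1 siRNA against HuR siRNA gave 1 higher with the pseudocount of 0.1 and 1 lower with assembled transcripts. Control siRNA against PDL 15 gave 0 higher with the minimum of 5. With no filter or deposited scaling HOXC6 fell short, leaving 2 members lower with AUF1 siRNA and 2 lower with HuR siRNA. The same settings left 2 higher in control siRNA against PDL 15. At 5 FPKM in place of 1, the members in a library numbered 3, 2, 2, 3 and 1 at PDL 55, with AUF1, HuR and control siRNA and at PDL 15.

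As shares of FPKM times length of every annotated transcript, also chosen after seeing the data, cluster B held 90.4%, 87.3%, 84.2%, 81.7% and 91.2% in those libraries. Cluster A held 9.60%, 12.1%, 14.9%, 15.9% and 8.11%. Cluster C held 0.609%, 0.877%, 1.91% and 0.664% in the last 4, and cluster D 0.000104% with AUF1 siRNA and 0.0155% with HuR siRNA.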
